A study of Mus musculus with 6 samples.

Results

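Cadherins and Epcam are the surface proteins that hold epithelial and endothelial cells to their neighbours, and 8 of their genes were followed here through the cells of mouse kidney and mouse mammary tumor. The members were chosen by symbol: Cdh1 (E-cadherin), Cdh2 (N-cadherin), Cdh3 (P-cadherin), Cdh5 (VE-cadherin), Cdh6 (K-cadherin), Cdh13 (T-cadherin), Cdh16 (Ksp-cadherin) and Epcam. All 8 were found among the 31053 genes of each count matrix. The libraries were single-cell RNA-seq of minced tissue broken into cells with collagenase either by a microfluidic platform or by a conventional digest. Kidney came from male C57BL/6 mice of 12 weeks, and tumor from female MMTV-PyMT mice of 10 weeks, a model in which the MMTV promoter drives the polyoma middle T oncogene in mammary epithelium. Each tissue gave 3 libraries: a control digested for 60 min in a shaking incubator and then pipetted and vortexed, and the first and the last interval of the platform's digestion device, at 15 and 60 min, each passed once through a dissociation and filter device. In the interval format, cells are eluted at 15 min and the remaining tissue is digested further. The 60 min platform library thus lacks what was eluted earlier, while the control is a whole digest. All 6 libraries shared the DNase treatment, the lysis of red blood cells and the sort for live, SytoxBlue-negative cells.

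Classical cadherins span the membrane and bind the same cadherin on a neighbouring cell in the presence of calcium, while their tails bind catenins that link them to actin. E-cadherin marks most epithelia, P-cadherin the basal layer of glands and skin, N-cadherin neural, mesenchymal and some renal cells, and VE-cadherin the junctions of endothelium. T-cadherin lacks a tail and sits on a lipid anchor, Ksp-cadherin is an epithelial cadherin of the kidney, K-cadherin is known from developing and adult tubules, and Epcam is an unrelated adhesion protein of simple epithelia that is also used as the usual antibody target for epithelial cells.

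In the mm10 build (GRCm38), 5 of the 8 genes lie on chromosome 8. These are Cdh1 at chr8:106603351-106670246 and Cdh3 at chr8:106510891-106557297, Cdh5 at chr8:104101625-104144511 and Cdh13 at chr8:118283733-119324921, all on the plus strand, and Cdh16 at chr8:104601911-104624396 on the minus strand. Cdh13 spans 1041 kb. The other members are Cdh2 at chr18:16588877-16809246 and Cdh6 at chr15:13028701-13173675, both on the minus strand, and Epcam at chr17:87635979-87651129 on the plus strand. The coordinates are whole gene spans, exons and introns included, and the UMIs counted are tags from the 3' ends of transcripts. Levels are therefore compared between cell types and libraries for 1 gene at a time, and not between genes.

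After filtering, 5736 to 9936 cells and 33644880 to 61434200 UMIs remained per library, with a median of 4583 to 6612 UMIs per cell in kidney and 8211 to 9476 in tumor. The median mitochondrial share was 20.4% in the kidney 15 min library against 7.38% in its control and 8.59% at 60 min, and lay between 6.55% and 7.54% in tumor. Libraries of the same tissue shared 16 to 211 cell barcodes, at most 1.75% of the smaller library. Each group is 1 library, so no test was made. By the study's own description, conditions tested side by side shared tissue of a single mouse, and sequencing was not replicated. Levels are UMIs per 1000000 UMIs, or counts per 1000000 (CPM), with exact Poisson 95% intervals, shares of cells have Clopper-Pearson intervals, ratios have exact conditional intervals, and all of these cover counting error only. The matrices of the tissues were aggregated separately, which bears on every level set across them.

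Cells were assigned to types with lists of marker genes that contain no member. Between 64.5% and 91.2% of the kept cells of a library were assigned. A second, separate list of markers was highest in its own type in 21 of 22 types. The exception was the tumor type gated on Krt5, Krt14, Krt17, Trp63, Oxtr and Cnn1, called basal here by that gate. Its second list, the contractile genes Acta2, Myh11 and Mylk together with Lgr6, stood at 1001 CPM in these cells against 4018 CPM in pericytes. For kidney intercalated cells the check was close, at 952 CPM against 905 CPM in principal cells of the collecting duct. Kidney stromal cells, with 38 cells, and tumor B lymphocytes, with 10 cells, fell under the minimum of 50 and were left out of the ordered levels.

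The epithelial cadherins of kidney followed the nephron. Cdh1 was highest in principal cells of the collecting duct at 315 CPM (269 to 365; 171 UMIs in 158 cells). Distal convoluted tubule, at 102 CPM (61.5 to 160), and thick ascending limb, at 93.4 CPM (76.5 to 113), came next, and their intervals overlap. Intercalated cells held 43.8 CPM and proximal tubule 8.59 CPM (7.99 to 9.24; 743 UMIs in 12229 cells). All of the tubule types lay above macrophages, which should lack the gene and held 0.685 CPM. The share of principal cells with a Cdh1 UMI was 58.2% (50.1 to 66.0), and 20.6% after every cell was thinned to 1000 UMIs. In kidney macrophages those shares were 0.416% and 0.0599%.

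Cdh16, the kidney cadherin, was the member seen in most tubule cells. Principal cells held 1832 CPM (1720 to 1950), and thick ascending limb, at 514 CPM, and distal convoluted tubule, at 430 CPM, had overlapping intervals. Intercalated cells, at 237 CPM, and proximal tubule, at 224 CPM (221 to 227; 19388 UMIs), overlapped as well. Because proximal tubule cells were the most numerous, they carried 71.7% of all Cdh16 UMIs of the tissue. The gene was also counted at 5.28 to 9.86 CPM in every immune and endothelial type that passed the minimum of cells, with intervals that overlap in that order. In tumor, Cdh16 had 0 UMIs in all 3 libraries. There 3 UMIs, about the one-sided 95% upper limit for a count of 0, would be 0.0517 to 0.0592 CPM per library.

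Epcam had another order along the same nephron. Thick ascending limb was highest at 692 CPM (645 to 742), above principal cells at 493 CPM (436 to 556) and intercalated cells at 394 CPM (323 to 476), which overlap each other. Distal convoluted tubule followed at 194 CPM (136 to 268). Proximal tubule, the segment that made up most of the kidney cells, held 1.23 CPM (1.00 to 1.48; 106 UMIs) and was not distinguishable from macrophages at 1.08 CPM (0.537 to 1.93). Per Cdh1 UMI, Epcam gave 7.41 UMIs (6.05 to 9.16) in thick ascending limb and 1.57 (1.29 to 1.91) in principal cells, so that the 2 segments were ordered oppositely by the 2 genes.

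**Figure D1:**
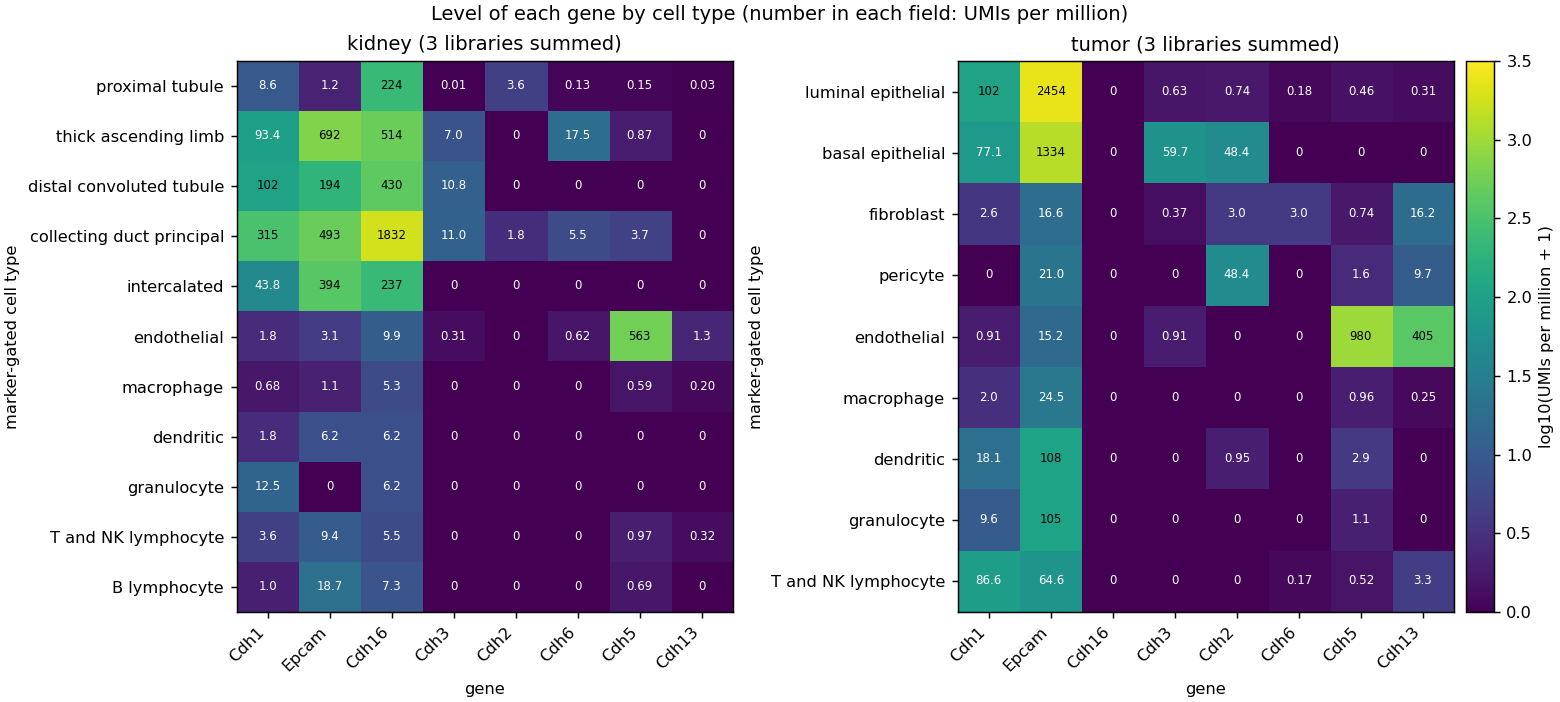
Level of each member (columns) in each marker-gated cell type (lines) of kidney and of tumor, with the 3 libraries of a tissue summed, where colour gives log10(CPM + 1) and the printed number the CPM. Cdh1 and Cdh16 are highest in kidney principal cells, Epcam in thick ascending limb and in tumor luminal cells, Cdh5 in endothelium of both tissues, and Cdh13 in endothelium of tumor.

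The remaining members were sparse in kidney tubules. Cdh6 had 20 UMIs in thick ascending limb (17.5 CPM, 10.7 to 27.0), 3 in principal cells and 11 in the much larger proximal tubule gate, at 0.127 CPM. Its highest raw count among the small gates was 12 UMIs in the 38 stromal cells, which were too few to be ordered. With each cell assigned to the list with most of its markers, Cdh6 was highest in stromal cells. It stood there at 66.8 CPM (44.7 to 96.0; 29 UMIs in 82 cells), against 22.6 CPM (16.7 to 29.9) in thick ascending limb. Cdh3 had 6 UMIs in principal cells (11.04 CPM), 8 in thick ascending limb (6.98 CPM) and 2 in distal convoluted tubule (10.8 CPM), with overlapping intervals, and 1 UMI in proximal tubule. At these counts the order within the distal nephron was not resolved. For both genes, the gap from thick ascending limb and principal cells to proximal tubule exceeded the counting intervals. Intercalated cells had 0 UMIs of either gene and distal convoluted tubule 0 of Cdh6, and no such gap was shown there.

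Cdh2 and Cdh1 divided the proximal tubule by segment. Cells of the first segment, S1, were taken as proximal tubule cells with at least 2 of Slc5a2, Slc5a12 and Slc7a7, which are transporters of glucose, lactate and amino acids, and cells of the last segment, S3, as those with at least 2 of Slc7a13, Cyp7b1 and Slc22a30. Of the 12229 proximal tubule cells, 2843 were S1, 2655 were S3, and 55.0% were in neither. Cdh2, which had at most 1 UMI in every other ordered kidney type, stood at 9.64 CPM in S1 (191 UMIs) and 0.434 CPM in S3 (10 UMIs), a ratio of 22.2 (11.8 to 47.1). Cdh1 ran the other way, at 2.93 CPM in S1 (58 UMIs) and 13.1 CPM in S3 (302 UMIs), which is 4.48-fold higher in S3 (3.37 to 6.04).

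Both directions were seen in each library. Cdh2 in S1 and S3 was 6.09 and 0.266 CPM for the control, 10.4 and 0.180 CPM at 15 min, and 10.7 and 2.31 CPM at 60 min. The S1 to S3 ratio was 22.9 (3.72 to 943) in the control, where S3 held 1 UMI, 57.7 (19.3 to 284) at 15 min, where S3 held 3, and 4.65 (1.99 to 13.3) at 60 min. Cdh1 in S1 and S3 was 1.59 and 13.6 CPM in the control, 2.99 and 12.6 CPM at 15 min, and 3.86 and 15.4 CPM at 60 min. Cdh16 differed little between the segments, at 255 CPM in S1 and 198 CPM in S3, a ratio of 1.29 (1.24 to 1.34). After thinning, 91 proximal tubule cells had a Cdh1 UMI and 46 a Cdh2 UMI, and none of 11907 cells had both, where 0.352 cells would be so if the genes were independent, so that thinned counts were too few to show exclusion within a cell.

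**Figure D2:**
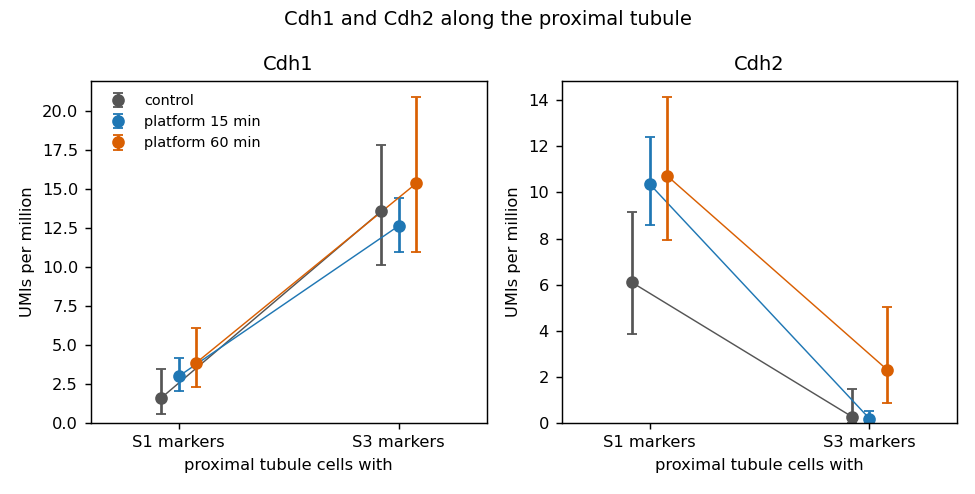
Level of Cdh1 and of Cdh2 in S1 and S3 cells of the proximal tubule, in CPM on linear axes from 0, with 1 colour per kidney library, exact Poisson 95% intervals as bars and lines joining the values of a library. Cdh1 is higher in S3 and Cdh2 higher in S1 in all 3 libraries.

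In tumor, Epcam and Cdh1 were the epithelial members. Luminal cells held 2454 CPM of Epcam (2443 to 2465; 191123 UMIs) and 102 CPM of Cdh1 (99.7 to 104; 7937 UMIs). The basal-gated cells held 1334 CPM of Epcam (1273 to 1398) and 77.1 CPM of Cdh1 (62.9 to 93.6). An Epcam UMI was found in 99.6% of luminal cells and in 85.0% after thinning. For Cdh1 the shares were 56.6% and 9.83%, and Epcam and Cdh1 were found together in 638 of 7388 thinned luminal cells, where 617 would be so if they were independent. Luminal cells with at least 3 of the cell-cycle genes Mki67, Top2a, Cdk1, Birc5, Pclaf and Ccnb1 had less Epcam, at 1797, 1961 and 1885 CPM in the control, 15 min and 60 min libraries against 2618, 2415 and 2358 CPM in the other luminal cells. Cdh1 differed less between these cells, at 93.9 CPM in cycling and 102 CPM in other luminal cells.

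Cdh3 had its highest level in the basal-gated cells, and Cdh2 in those cells and in pericytes. The basal-gated cells held 39.1% of the Cdh3 UMIs of the tissue and 28.6% of the Cdh2 UMIs. Luminal cells held 24.3% and 25.9%, and cells outside every type 32.2% and 28.1%. Cdh3 stood at 59.7 CPM there (47.3 to 74.4; 79 UMIs in 141 cells) and at no more than 0.909 CPM in any other ordered tumor type, luminal cells included at 0.629 CPM. Cdh2 stood at 48.4 CPM in the basal-gated cells (37.3 to 61.8; 64 UMIs) and at 48.4 CPM in pericytes (32.6 to 69.1; 30 UMIs), and fell to 2.95 CPM in fibroblasts and 0.745 CPM in luminal cells. By library, the basal-gated cells had 3, 6 and 55 UMIs of Cdh2 and 7, 11 and 61 of Cdh3, in the order control, 15 min and 60 min, with 18, 23 and 100 cells. Most of the counts thus came from the 60 min library. The level of Cdh2 there was 58.1 CPM against 17.8 CPM in the control, and that of Cdh3 was 64.4 against 41.5 CPM. With no upper limit on the genes of a cell, the levels in basal-gated cells were 29.5 CPM of Cdh2 and 38.6 CPM of Cdh3, below the intervals given above.

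Cdh5 marked endothelium in both tissues and Cdh13 in tumor. Kidney endothelial cells held 563 CPM of Cdh5 (548 to 579; 5428 UMIs in 2529 cells), and no other ordered kidney type exceeded 3.68 CPM. Tumor endothelial cells held 980 CPM (960 to 1001; 8624 UMIs in 1181 cells), and no other tumor type exceeded 2.86 CPM. A Cdh5 UMI was found in 84.1% of kidney and 96.5% of tumor endothelial cells, and in 43.9% and 60.8% of them after thinning to 1000 UMIs.

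Cdh13 separated the 2 endothelia. In tumor endothelium it stood at 405 CPM (392 to 418; 3561 UMIs), 351 CPM for the control library, 459 CPM for 15 min and 403 CPM for 60 min. In kidney endothelium it had 13 UMIs in all, or 1.35 CPM (0.718 to 2.31), with 1.07, 0 and 1.65 CPM in the same order of libraries. After thinning, a Cdh13 UMI was found in 32.4% of tumor and 0.0807% of kidney endothelial cells. Strain, sex, age and tissue change together between these libraries and the matrices were made separately, so their parts in the difference cannot be told apart. Tumor fibroblasts held 16.3 CPM of Cdh13 and pericytes 9.67 CPM, with overlapping intervals. Of 1176 thinned tumor endothelial cells, 248 had a UMI of both Cdh5 and Cdh13, where 232 would if they were independent.

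Cdh1 was also counted in tumor lymphocytes. T and NK lymphocytes held 86.6 CPM (79.1 to 94.5; 501 UMIs in 815 cells), below luminal cells and overlapping the basal-gated cells. Macrophages and endothelial cells of the same libraries held 2.003 and 0.909 CPM. Dendritic cells held 18.1 CPM (10.9 to 28.3) and granulocytes 9.56 CPM (4.37 to 18.1). The control had 241 UMIs, the 15 min library 135 and the 60 min library 125, which are 99.5, 90.6 and 66.6 CPM. A Cdh1 UMI was found in 35.5% of these lymphocytes at a median depth of 6682 UMIs, and in 7.31% after thinning (5.61 to 9.33). The thinned share was 9.83% in luminal cells and 0.238% in macrophages.

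Epcam did not follow Cdh1 in these lymphocytes. Luminal cells gave 24.1 Epcam UMIs per Cdh1 UMI (23.5 to 24.6), endothelial cells 16.8 and macrophages 12.2, and T and NK lymphocytes 0.747 (0.651 to 0.855). Fibroblasts gave 6.43 (2.88 to 16.9) and dendritic cells 5.95 (3.64 to 10.2). The control lymphocytes gave 0.656, those of the 15 min library 1.07 and those of the 60 min library 0.568. In the 386 of 815 lymphocytes with no UMI of Epcam, Krt8 or Krt18, which are genes of luminal cells, Cdh1 stood at 74.1 CPM (63.4 to 86.2), with 107, 79.4 and 54.7 CPM in the control, 15 min and 60 min libraries. T and NK lymphocytes had been meant as the background for Cdh1, and macrophages and endothelial cells were put in their place after these values were seen.

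Lymphocytes with UMIs of Cd3e, Cd3d or Cd3g and of Trdc, the constant gene of a T cell receptor chain, had 106 CPM of Cdh1 (92.0 to 121), those with Cd3 genes but no Trdc had 73.7 CPM (64.8 to 83.6), and those with Ncr1 but no Cd3 gene had 83.8 CPM (58.1 to 117). Itgae, the alpha chain of a lymphocyte integrin that binds E-cadherin, stood at 399 CPM in the 289 lymphocytes with a Cdh1 UMI and at 223 CPM in the 526 without, whose median depths were 8784 and 4838 UMIs. Epcam stood at 76.0 and 55.1 CPM and Krt18 at 31.4 and 32.8 CPM in the same cells. These subdivisions were chosen after the Cdh1 values were known. Kidney T and NK lymphocytes held 3.55 CPM of Cdh1 (1.77 to 6.36; 11 UMIs in 596 cells).

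**Figure D3:**
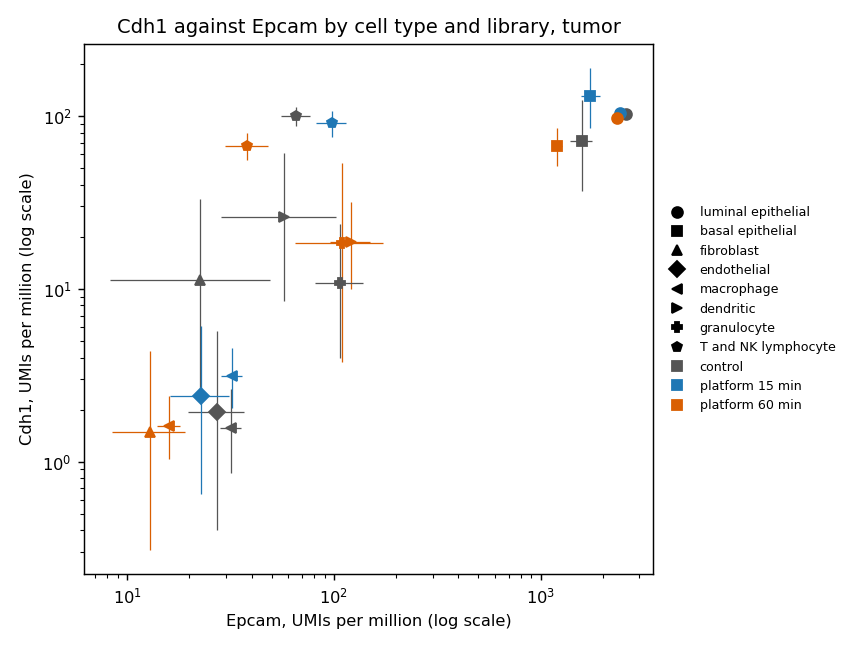
Cdh1 (vertical axis) against Epcam (horizontal axis) in the cell types of tumor, in CPM on log scales, with 1 point per type (shape) and library (colour) where both genes had at least 3 UMIs, and exact Poisson 95% intervals as bars. The T and NK lymphocyte points sit at 66.6 to 99.5 CPM of Cdh1, near luminal cells at 96.7 to 104 CPM, but at 37.8 to 97.4 CPM of Epcam.

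Catenins, the cytoplasmic partners of cadherins, differed between the types as well. In kidney, Ctnna1 stood at 434 CPM in principal cells, 219 CPM in endothelium, 165 CPM in thick ascending limb and 47.3 CPM in proximal tubule. Jup (plakoglobin), which binds cadherin tails in place of beta-catenin, stood at 392 CPM in kidney endothelium and 21.9 CPM in proximal tubule. In tumor, T and NK lymphocytes held as much Ctnnb1 as luminal cells, 138 against 141 CPM, but 1.21 CPM of Ctnnd1 (p120-catenin), which stabilises cadherins at the membrane, against 59.4 CPM, and 7.08 CPM of Jup against 153 CPM.

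Of the 5 transcription factors listed as repressors of Cdh1, none exceeded 7.68 CPM in tumor luminal cells. Zeb1 stood at 0.770 CPM in tumor luminal cells, 84.2 CPM in fibroblasts and 153 CPM in endothelium, and also at 131 CPM in the T and NK lymphocytes in which Cdh1 was counted. In kidney it stood at 133 CPM in endothelium and 0.891 CPM in proximal tubule. Zeb2 was at 780 CPM in pericytes and Twist1 at 188 CPM in fibroblasts. Snai2 was at 47.6 CPM in the basal-gated cells, where Cdh1 was also present, and at 0.796 CPM in luminal cells.

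These repressors bind E-box sequences, and the 250 bases before the start of Epcam are shown because they hold 2 of them. RefSeq promoter sequences (GRCm38.p6) were matched for 2 of the 8 members, Epcam and Cdh6, and not for Cdh1, Cdh2, Cdh3, Cdh5, Cdh13 and Cdh16. The Epcam stretch is chr17:87635729-87635978 on the plus strand. Capitals mark CACCTG and CAGGTG, each the reverse complement of the other, so that the search covers both strands.
Epcam: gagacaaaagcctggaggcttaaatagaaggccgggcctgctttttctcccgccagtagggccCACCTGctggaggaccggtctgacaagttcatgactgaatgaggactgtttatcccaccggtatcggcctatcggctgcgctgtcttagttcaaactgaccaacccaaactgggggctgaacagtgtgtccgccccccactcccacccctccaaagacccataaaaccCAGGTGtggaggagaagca
Of 32851 promoters in the same table, 5657 (17.2%) hold at least 1 of these runs of letters in the same window. The share that holds 2, as Epcam does, was not computed. In the stretch of Cdh6, chr15:13173676-13173925 on the minus strand, neither was found, which says only that these letters are not in that window. A match describes the sequence and was not tested as a binding site.

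The question put by the design was what each way of breaking up the tissue released. For whole libraries the members are compared as CPM ratios, and a gene with at least 50 UMIs in both libraries together is counted as past 2-fold when its ratio is at least 2 or at most 0.5. In such sums, fewer cells of a type and less RNA per cell cannot be told apart. Each platform library is 1 interval of a digestion and the control a whole digest. Ratios to the control therefore set a part against a whole, and do not compare the 2 methods at equal time.

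In kidney, the 15 min library had less Cdh5, Epcam and Cdh6 and more Cdh2 than the control. Cdh5 was at 13.7 against 38.2 CPM, a ratio of 0.360 (0.330 to 0.393), Epcam at 7.44 against 34.1 CPM, a ratio of 0.218 (0.196 to 0.244), and Cdh6 at 0.244 against 1.10 CPM, a ratio of 0.222 (0.113 to 0.414). Cdh2 was higher, at 3.37 against 1.43 CPM, a ratio of 2.36 (1.72 to 3.30). Thus 4 of 6 members with enough UMIs were past 2-fold, 1 higher and 3 lower, beside 27.6% of all genes tested, 2.13% higher and 25.5% lower. With median-of-ratios size factors in place of total UMIs, Cdh16 joined them at a ratio of 2.29. Cdh16 had a ratio of 1.77 (1.71 to 1.83) and Cdh1 of 0.765 (0.673 to 0.872), and the median of all genes was 0.773. Proximal tubule made up 82.5% of the 15 min cells and 48.5% of the control, and endothelium 3.53% and 7.71%.

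The kidney 60 min library had more Cdh5 than the control, at 107 against 38.2 CPM, a ratio of 2.81 (2.64 to 2.99). Cdh13 was at 1.01 against 0.476 CPM, a ratio of 2.13 (1.20 to 3.99) from 53 and 16 UMIs. These were 2 of 7 members, both higher, beside 9.57% of all genes past 2-fold and 8.78% higher. With median-of-ratios size factors Cdh13 was at 1.82 and was lost from the count, while Cdh5 was at 2.40. Epcam had a ratio of 1.37 (1.27 to 1.47), Cdh1 of 1.28 (1.14 to 1.45), Cdh2 of 1.74, Cdh6 of 1.96 and Cdh16 of 1.02 (0.984 to 1.06). Endothelial cells were 17.9% of this library. Over all kidney libraries, Cdh13 had 13 UMIs in gated endothelium. With each cell assigned to the list with most of its markers, Cdh13 was highest in stromal cells. It stood there at 32.3 CPM (17.6 to 54.1; 14 UMIs), against 1.13 CPM in endothelium, and 23 UMIs lay in cells of no list.

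Between the kidney platform intervals, the genes at large differed most. At 60 min Cdh13 was 12.4-fold (5.01 to 39.9), Cdh6 8.84-fold (5.14 to 16.3), Cdh5 7.80-fold (7.25 to 8.39) and Epcam 6.26-fold (5.66 to 6.93) as high as at 15 min. These are 4 of 7 members, all higher on this scale, while 45.6% of all genes were past 2-fold in this comparison and 40.4% were higher, so the count says little of the members as a group. Cdh16 was at 0.577 and Cdh2 at 0.737 of the 15 min level. With median-of-ratios size factors the count was 6 of 7, 4 higher and 2 lower, since Cdh16 was then at 0.364 and Cdh2 at 0.466, and Cdh13, Cdh6, Cdh5 and Epcam were 7.86-fold, 5.58-fold, 4.93-fold and 3.95-fold as high.

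In tumor, the 15 min library and the control differed by less than 2-fold for each of the 6 members with enough UMIs, beside 5.62% of all genes past 2-fold. The ratios ran from 1.12 for Epcam (1.11 to 1.13) to 1.32 for Cdh13 (1.19 to 1.45), and the median of all genes was 1.16. With median-of-ratios size factors they ran from 0.965 for Epcam to 1.13 for Cdh13, so no direction is given for the members here. Cdh6 had 0 UMIs in the control, against 12 and 19 in the platform libraries of 15 and 60 min.

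The tumor 60 min library had more of the stromal, endothelial and basal members and less of the luminal ones. Against the control, Cdh13 was at 46.9 and 13.3 CPM, a ratio of 3.53 (3.24 to 3.85), and Cdh2 at 2.43 and 0.711 CPM, a ratio of 3.42 (2.36 to 5.08). Cdh3 was at 2.12 and 0.651 CPM, a ratio of 3.25 (2.20 to 4.94), and Cdh5 at 105 and 35.8 CPM, a ratio of 2.93 (2.78 to 3.09). These are 4 of 6 members, all higher, beside 9.97% of all genes past 2-fold and 8.02% higher. Epcam, at 991 against 1572 CPM, had a ratio of 0.630 (0.624 to 0.637), and Cdh1 of 0.648 (0.616 to 0.682). Luminal cells were 29.2% of the 60 min cells and 43.4% of the control, endothelial cells 11.4% and 4.72%, and basal-gated cells 1.66% and 0.314%. Against the 15 min library the same 4 members were 2.53-fold to 2.84-fold as high, beside 13.5% of all genes past 2-fold and 8.47% higher, and both Epcam and Cdh1 were at 0.563.

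**Figure D4:**
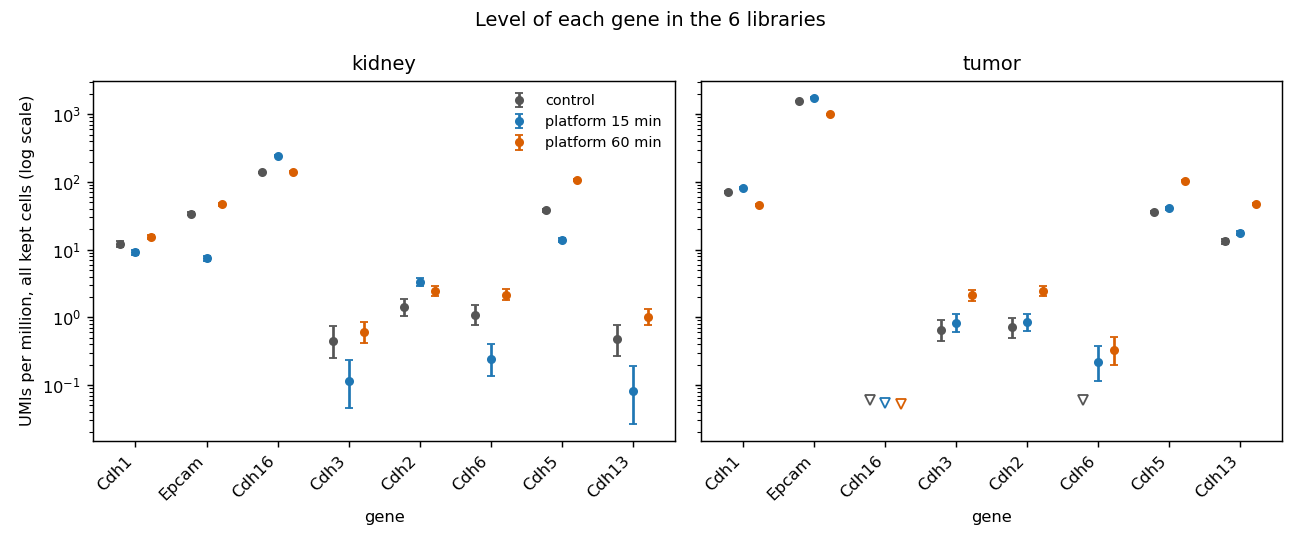
Level of each member in the control, 15 min and 60 min libraries of kidney and tumor, over all kept cells, in CPM on a log scale with exact Poisson 95% intervals as bars. Open triangles mark the level of 3 UMIs where a library held 0. Cdh5 is highest at 60 min in both tissues, at 107 and 105 CPM, while Epcam is highest at 60 min in kidney and lowest at 60 min in tumor.

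Within cell types most of these differences were small. Cdh5 in kidney endothelium was at 557, 565 and 565 CPM in the control, 15 min and 60 min libraries, with ratios to the control of 1.01 (0.917 to 1.12) and 1.01 (0.947 to 1.09). Thus the 2.81-fold difference of the whole 60 min library was not seen per endothelial UMI. In tumor endothelium Cdh5 was at 1022, 1115 and 929 CPM and Cdh13 at 351, 459 and 403 CPM, with ratios to the control from 0.908 to 1.31. In tumor luminal cells Cdh1 was at 103, 104 and 96.7 CPM, and Epcam at 2595, 2409 and 2340 CPM, ratios of 0.929 and 0.902. In kidney thick ascending limb Epcam was at 747 CPM in the control and 645 CPM at 60 min (ratio 0.864, 0.726 to 1.03), and in principal cells Cdh1 was at 268 and 347 CPM (ratio 1.30, 0.939 to 1.80). Both intervals include 1.

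In proximal tubule, Cdh1 was at 7.55, 8.97 and 8.49 CPM in the control, 15 min and 60 min libraries, and the intervals of its ratios to the control include 1. Cdh2 was at 2.14, 3.41 and 5.90 CPM, so that the 60 min library was 2.76-fold as high as the control (1.87 to 4.15) from 89 and 38 UMIs. S1 cells were 18.8%, 23.4% and 27.9% of the proximal tubule cells of these libraries, and S3 cells 16.1%, 27.0% and 13.3%. Within S1 cells Cdh2 was at 6.09, 10.4 and 10.7 CPM. Cdh16 was at 151, 258 and 192 CPM, 1.70-fold as high at 15 min as in the control (1.63 to 1.77), in the library whose median mitochondrial share was 20.4%. The part of these shares in the levels was not tested.

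Epcam in proximal tubule was at 1.07, 0.448 and 4.18 CPM, from 19, 24 and 63 UMIs. The 60 min library was 3.90-fold as high as the control (2.31 to 6.91), but its 63 UMIs lay in 26 cells, and 1 cell held 24 of them. Without that cell the level was 2.59 CPM and the ratio 2.42. Cdh16 in kidney endothelium, where it is near the level of immune cells, had 7, 8 and 80 UMIs, at 3.75, 7.33 and 12.0 CPM. The 60 min ratio to the control was 3.20 (1.48 to 8.20). Across the ordered kidney types, 3 of 13 tested pairs of member and type were past 2-fold at 60 min against the control, all 3 higher. The share of all genes past 2-fold was 4.78% in proximal tubule (4.61% higher), 1.8% in endothelium (1.25% higher), 5.35% in thick ascending limb, 2.12% in principal cells and 2.61% in macrophages. At 15 min against the control 0 of 4 were, beside 1.55% of genes in proximal tubule and 3.85% in endothelium. At 60 min against 15 min 1 of 6 was, Epcam in proximal tubule at 9.34-fold (5.75 to 15.6), or 5.78-fold without the cell with 24 UMIs, beside 7.35% of genes there (7.14% higher) and 4.33% in endothelium.

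In tumor, the pairs past 2-fold were Epcam in types that are not epithelial, lower at 60 min. Other settings added pairs that were higher: Cdh13 in fibroblasts at 3.56-fold against the control and 3.58-fold against 15 min with no upper limit on genes, and, with a minimum of 20 UMIs, Cdh5 in macrophages at 2.84-fold against the control, and Cdh13 in fibroblasts at 3.86-fold and Cdh2 in luminal cells at 2.09-fold against 15 min. Endothelial cells held 27.3, 22.7 and 9.67 CPM of Epcam in the control, 15 min and 60 min libraries, a 60 min ratio to the control of 0.355 (0.233 to 0.544), beside 2.7% of all genes past 2-fold in that type and 1.55% lower. The ratio to 15 min was 0.426 (0.276 to 0.662), beside 4.83% of genes and 2.34% lower. Macrophages held 31.7, 32.0 and 15.9 CPM, with ratios of 0.501 (0.420 to 0.598) to the control and 0.497 (0.416 to 0.593) to 15 min, beside 5.29% and 5.98% of genes (3.15% lower in the latter). T and NK lymphocytes held 65.2, 97.4 and 37.8 CPM, ratios of 0.580 to the control and 0.389 (0.288 to 0.520) to 15 min, beside 6.4% and 5.98% of genes (2.74% lower in the latter). Granulocytes held 107, 97.6 and 110 CPM from 59, 22 and 18 UMIs, in a type where 18.9% of genes were past 2-fold at 60 min against the control. Luminal cells were 43.4%, 54.2% and 29.2% of the cells of these libraries, and the part of that share in these values was not tested. In all, 1 of 9 tested pairs was past 2-fold at 60 min against the control, 3 of 9 at 60 min against 15 min and 0 of 9 at 15 min against the control, where 3.56% of genes were in luminal cells, 2.57% in endothelium, 12% in macrophages, 17.7% in granulocytes and 7.42% in T and NK lymphocytes. In luminal cells the shares were 1.64% at 60 min against the control and 3.08% against 15 min.

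**Figure D5:**
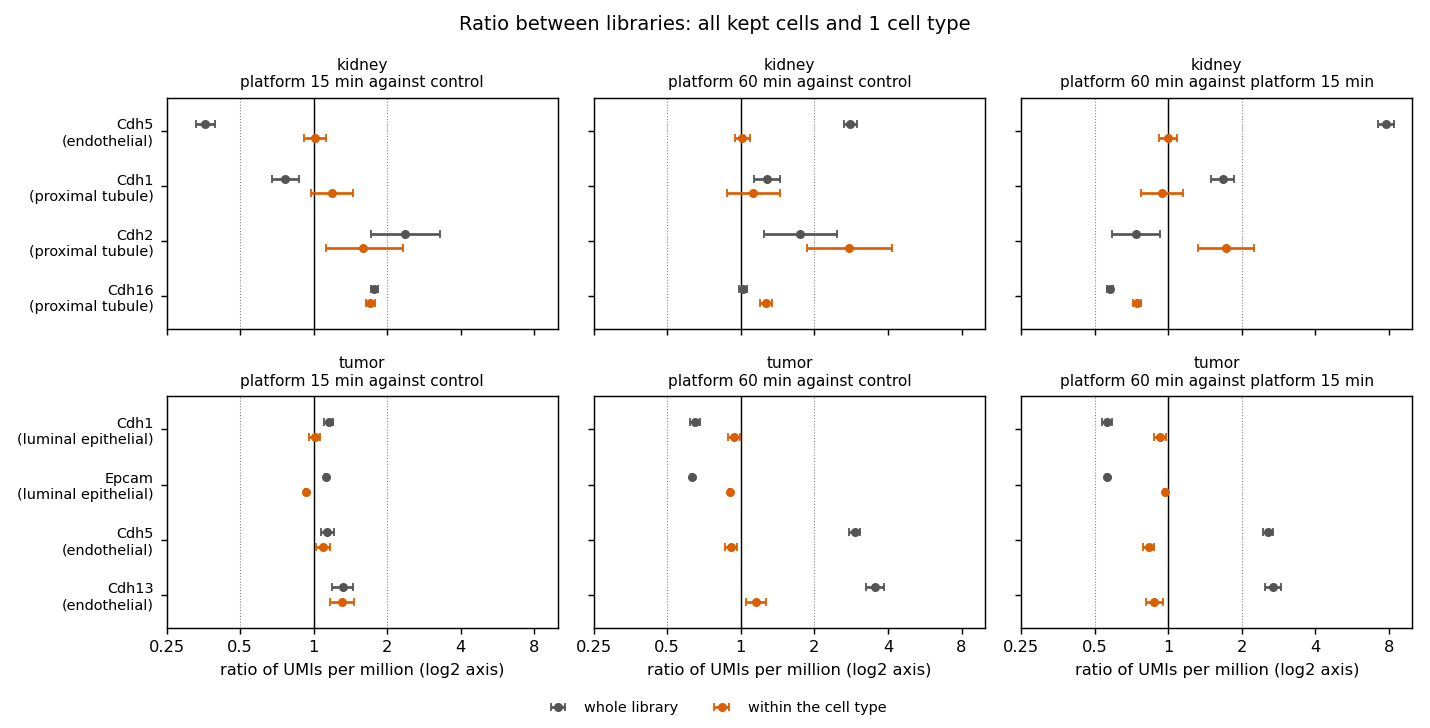
Ratio of CPM between libraries for 4 members of each tissue, on a log2 axis, over all kept cells (grey) and within the cell type named beside the gene (orange), with exact conditional 95% intervals as bars and dotted lines at 0.5 and 2. The whole-library ratios of Cdh5 at 60 min against the control, 2.81 in kidney and 2.93 in tumor, stand beside ratios of 1.01 and 0.908 within endothelium.

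Of the genes around the members, none of 4 catenins was past 2-fold in whole libraries of kidney at 15 min or 60 min against the control, or in tumor. The shares of all genes were 25.5% lower at 15 min and 8.78% higher at 60 min in kidney, and 8.02% higher at 60 min in tumor, all against the control, and the counts that follow are read beside them. Of the 6 nectins and junction adaptors, 1 was higher in kidney at 60 min, and the repressors of Cdh1 had 4 of 4 lower at 15 min and 2 of 4 higher at 60 min in kidney, and 2 of 5 higher at 60 min in tumor. Of 4 tested sheddases, the proteases that cut cadherins from the surface, 2 were lower at 15 min and 1 higher at 60 min in kidney. Stress genes such as Fos, Jun and Hspa8 summed to 8768, 3769 and 14979 CPM in the control, 15 min and 60 min libraries of kidney and to 12948, 15030 and 18575 CPM in tumor. Of the 12 stress genes, 10 were lower at 15 min and 5 higher at 60 min in kidney against the control, beside the same 25.5% and 8.78% of all genes.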

How the data were processed

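The authors aligned reads of 10x Genomics v3 libraries with Cell Ranger 3.1.0 to mm10, per the submitters' processing notes and the study's methods, and joined the 3 libraries of a tissue with Cell Ranger Aggr, which evens mapped reads per cell across libraries. The deposited matrices, 1 per tissue, hold whole UMI counts per gene and cell, and the barcode suffix gives the library. The members, gene lists and cell type markers were chosen with earlier results of these data known.

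Cells with 200 to 3000 genes and at most 50% mitochondrial UMIs (kidney), or 200 to 4000 genes and at most 25% (tumor), were kept, after the study's limits. No doublet caller was run: the upper limit on genes and the bar on cells with markers of another list stood in for it. A cell entered a type with at least 3 of its 6 markers (2 for dendritic cells and granulocytes) and fewer than 2 of any other list, except that basal-gated cells could hold luminal markers. Outside all types were 22.1%, 8.78% and 35.5% of kept kidney cells and 27.4%, 18.9% and 25.1% of tumor cells in the control, 15 min and 60 min libraries. Cells barred by a second list were 7.09% to 27.0% in kidney and 7.20% to 12.7% in tumor, and those 1 marker short of a type 1.17% to 4.90% and 8.28% to 11.4%. Levels were CPM of summed UMI counts. Each library is 1 sample, so no p-value was computed. Cells were thinned to 1000 UMIs at random with a fixed seed of 0, leaving out shallower cells. The text names the 8 members, genes of the fixed lists, and the genes whose pattern over types and libraries was most like a member's. Where a list is given as a count, its genes are not all named. Cdh11 and Cdh19 are named from the other Cdh genes. Trdc, Ncr1 and Itgae were in no fixed list and were chosen after the Cdh1 values of lymphocytes were known. Alternatives were the fold, the UMI minimum, the gate rule, the limit on genes, the scaling and the averaging over cells. The code was tested on simulated counts. Python 3.11.15 with numpy 2.4.6, scipy 1.17.1, pandas 2.3.3 and matplotlib 3.10.9 was used.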

Additional observations from a re-analysis of the deposited data

Results flagged for a closer look

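For 4 members the whole-library ratio lay on opposite sides of 1 in kidney and in tumor, with both counting intervals clear of 1. The difference between the tissues itself was not tested, since each ratio rests on 1 library a side. At 15 min against the control, Cdh1 had a ratio of 0.765 in kidney and 1.15 in tumor, Cdh5 of 0.360 and 1.14, and Epcam of 0.218 and 1.12. At 60 min against the control, Cdh1 had a ratio of 1.28 in kidney and 0.648 in tumor, and Epcam of 1.37 and 0.630. At 60 min against 15 min, Cdh1 had a ratio of 1.67 in kidney and 0.563 in tumor, Cdh2 of 0.737 and 2.84, and Epcam of 6.26 and 0.563. With median-of-ratios size factors the tumor ratios at 15 min against the control were 0.991 for Cdh1, 0.980 for Cdh5 and 0.965 for Epcam, and that of Cdh1 in kidney 0.990, so that these 3 pairs were no longer on opposite sides of 1. Intervals with these size factors were not computed, so the other pairs are not shown to stay clear of 1. The leading types of these genes differ between the tissues: Epcam was highest in thick ascending limb of kidney and in luminal cells of tumor, and Cdh2 in proximal tubule of kidney and in basal-gated cells and pericytes of tumor.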

How the results depend on the processing

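No paired analysis was possible because each group is 1 library and the labels carry no replicate numbers. Each of the 12 counts of members past 2-fold was recomputed under the alternatives that apply to whole libraries or to cell types, 72 values in all, of which 55 stayed within 1.5 times the reported count and 17 moved beyond it. With no upper limit on genes, the count within cell types became 1 (reported 0) in kidney at 15 min against the control, and in tumor 1 (reported 0) at 15 min against the control, 4 (reported 1) at 60 min against the control and 5 (reported 3) at 60 min against 15 min, with 1 higher among each of the last pair. With a minimum of 20 UMIs, the within-type counts became 3 and 5 in kidney (15 min against the control, 60 min against 15 min) and 2 and 6 in tumor (60 min against the control and against 15 min), of which 1 and 2 were higher where all reported pairs were lower. With a 1.5-fold threshold they became 2 and 3 in kidney and 3 in tumor at 60 min against the control, and the whole-library count of kidney at 60 min against the control became 4, or 1 with median-of-ratios size factors, without Cdh13. Assigning each cell to the list with most markers gave 1 and 6 in kidney, and 1 at 15 min and 0 at 60 min in tumor against the control. Of 66 recomputed levels, 28 moved beyond their counting interval. The largest moves were in basal-gated cells of tumor with no upper limit on genes, where Cdh2 fell to 29.5 CPM and Cdh3 to 38.6 CPM, and without mitochondrial UMIs in kidney, where Cdh16 in principal cells rose to 2512 CPM and Epcam in thick ascending limb to 971 CPM. Without mitochondrial UMIs, the same UMIs of a member are set over a smaller total, so its level rises by definition. The causes of the other moves were not tested. Depth limits Cdh3, Cdh6 and Cdh13 in kidney and Cdh6 in tumor, whose counts per type were 20 or fewer, and the distal convoluted tubule and intercalated cells, with 70 and 55 cells.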

Other observations

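Part of each member's UMIs lay in kept cells outside every type. In kidney these were 64.3% of the Epcam UMIs (2597 of 4040), 38.5% of Cdh1, 29.5% of Cdh5, 21.2% of Cdh16 and 18.7% of Cdh2. In tumor they were 16.8% of Epcam, 18.3% of Cdh1, 14.1% of Cdh5 and 15.9% of Cdh13. The shares were larger for the sparser members, at 32.2% of Cdh3, 28.1% of Cdh2 and 25.8% of Cdh6. Among the barred kidney cells, 1008 held markers of proximal tubule and thick ascending limb together, with 577 Epcam UMIs, and 360 held those of thick ascending limb and distal convoluted tubule, with 621.

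Epcam was also counted in immune cells. Kidney B lymphocytes held 18.7 CPM (14.1 to 24.5; 54 UMIs), with 24.9, 8.44 and 19.6 CPM in the control, 15 min and 60 min libraries, against 1.08 CPM in macrophages, and their Cdh1 level was 1.04 CPM. Tumor dendritic cells held 108 CPM of Epcam (88.9 to 130), with 57.2, 114 and 120 CPM in the same order, against 24.5 CPM in macrophages, 64.6 CPM in T and NK lymphocytes and 105 CPM (85.4 to 128) in granulocytes, whose interval overlaps that of dendritic cells.

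Among the other 16 Cdh genes listed in each tissue, Cdh11, a mesenchymal cadherin, reached 273 CPM in tumor fibroblasts and was the only 1 to reach 50 CPM in an ordered type of either tissue. Cdh19 reached 14.5 CPM in tumor luminal cells, from 1128 UMIs.

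Over the columns of cell types and libraries, 20 in each tissue, the gene most like Cdh1 was Pou3f3 in kidney (Pearson r of log CPM 0.962) and Pkp3 in tumor (0.902). The gene most like Cdh5 was Ushbp1 in kidney (0.984) and Cyyr1 in tumor (0.984), for Cdh16 it was Celsr2 (0.982), and for Cdh3 in tumor Col17a1 (0.935). For Cdh13 in tumor it was Prex2 (0.968), and for Epcam Kctd1 in kidney (0.936) and Aldoc in tumor (0.966). The columns share libraries and cell types, and these are descriptions over 6408 genes of kidney and 6287 of tumor.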
